A study of Homo sapiens with 3 samples.

Results

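Protein glycosylation enzymes were taken here as the genes whose symbol belongs to the GALNT, ALG, MGAT, B3GALT, B3GNT, B4GALT, B4GALNT, POMT, POMGNT, FUT, ST3GAL, ST6GAL, ST6GALNAC or ST8SIA families, together with POMK, DPM1 to DPM3, DPAGT1, STT3A, STT3B, RPN1 and RPN2. The choice rests on symbols and uses no measured value. It gave 104 of the 18417 genes that have a probe set with a single gene symbol. Of these, 102 are protein coding, and the others are the antisense RNA B3GALT5-AS1 and the pseudogene MGAT4EP. Several B4GALT, B3GNT, ST3GAL, ST6GALNAC and ST8SIA members also or mainly build glycolipids, so the label is broader than protein glycosylation for them. For ALG10, ALG10B, ALG11 and GALNT4 there are 4 probe sets with more than one gene symbol each, which were not used.

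The RNA was from H9, an established line of human embryonic stem cells held in pluripotent conditions. The sources were RNA from polysomes, which are mRNAs carrying several ribosomes, RNA free of polysomes, and total RNA, and the labels name no genetic change or treatment for any of them. Each source was hybridised to 1 array, so no difference below has a replicate check and no p-value is given. Values are log2 expression values per probe set, as the authors deposited them.

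Sugars are attached to proteins of the secretory pathway by separate routes. In N-linked glycosylation the ALG enzymes build an oligosaccharide on the lipid dolichol in the endoplasmic reticulum, oligosaccharyltransferase moves it to asparagine, and MGAT and other Golgi enzymes remodel it. In mucin-type O-linked glycosylation the GALNT enzymes start each chain by placing N-acetylgalactosamine on serine or threonine in the Golgi, and POMT enzymes start O-mannose chains in the endoplasmic reticulum. Galactosyl-, fucosyl- and sialyltransferases then finish chains, among them the globo-series glycolipid antigens by which human pluripotent cells are recognised.

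All 9 measured pluripotency markers of the list used here (SOX2, LIN28A, DNMT3B, PODXL, SALL4, ZFP42, EPCAM, L1TD1 and CD9) were above background on each array. Background on an array was the 95th percentile of 479 olfactory and taste receptor, keratin-associated protein and defensin genes, and lay at 4.40 on the bound array, at 3.57 on the unbound one and at 3.76 on that of total RNA. Genes whose mean over the 3 arrays was above 3.84, the same percentile of that mean, passed the level filter, 12057 in all. Over these genes the bound array lay 1.195 above the unbound array and 0.89 above total RNA, and the unbound array lay 0.30 below total RNA (medians of the log2 differences). A relative difference is the log2 difference between 2 arrays minus this offset, so a gene slightly below 0 on the relative bound minus unbound scale can be positive as deposited.

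Most of the enzymes were above background. In total RNA 76 of the 104 members were above background (73.1%, against 63.5% of all genes), 75 were so on the bound array and 77 on the unbound array. All 11 measured ALG and DPAGT1 genes, all 3 DPM genes, all 4 oligosaccharyltransferase genes and all 5 O-mannose genes were above background on each array. In the GALNT family 10 of 17 were above background in total RNA, and in the FUT family 3 of 9 were, FUT4, FUT8 and FUT9. Past the level filter were 78 members. The other 26 included GALNT8, GALNT9, GALNT14, GALNT15 and GALNT18, and MGAT4C, MGAT4D, MGAT4EP and MGAT5B. The rest were 8 galactosyl, N-acetylglucosaminyl and N-acetylgalactosaminyl enzymes, 6 fucosyltransferases and 3 sialyltransferases. The 8 were B3GALT2, B3GALT4, B3GNT3, B3GNT4, B3GNT6, B3GNT8, B4GALNT1 and B4GALNT2, with values from 3.29 to 4.25 on the bound array, from 2.54 to 3.57 on the unbound one and from 2.79 to 3.49 in total RNA. The 6 were FUT1, FUT2, FUT3, FUT5, FUT6 and FUT7, from 3.60 to 4.36 in bound, from 2.80 to 3.69 in unbound and from 3.10 to 3.62 in total RNA. The 3 were ST6GALNAC1, ST8SIA3 and ST8SIA5, from 3.44 to 4.15 in bound, from 2.71 to 3.27 in unbound and from 2.90 to 3.89 in total RNA. The 4 MGAT genes ran from 3.39 to 4.07 in bound, from 2.90 to 3.38 in unbound and from 3.13 to 3.79 in total RNA. The 5 GALNT genes under the filter lay between 3.41 and 4.40 on the bound array, between 2.67 and 3.27 on the unbound one and between 2.88 and 3.63 in total RNA.

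Bound RNA was set against unbound RNA to see which of these mRNAs are carried by polysomes. Relative to the other genes, GALNT mRNAs lay toward the bound side at the median and ALG mRNAs toward the unbound side, although both were higher in bound RNA as deposited. The members as a whole were close to the middle of all genes. Of the 78 members past the filter, 5 lay 2-fold or more toward bound RNA after centring (6.41%, against 7.65% of all genes past the filter) and 4 lay 2-fold or more toward unbound RNA (5.13%, against 8.68%). The median relative difference of the 78 was 0.093, against 0 for all genes by construction. Over all 104 members with no filter, 14 were higher (13.5%, against 9.74% of all genes) and 2 were lower (1.92%, against 3.82%). As deposited 76 of the 78 were higher in bound RNA, and B4GALT2 and ST6GALNAC6 were lower. The median of all genes past the filter was itself 1.195 higher in bound RNA as deposited. The share of all genes higher as deposited was not counted, so the 76 are not read as a trait of these enzymes. By 2-fold or more, 55 members were higher (61.4% of all genes past the filter were) and 1 was lower (1.56% of all genes).

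The enzymes 2-fold apart after centring came from several routes. Higher in bound RNA were POMK, GALNT2, B4GALNT3, B3GALT1 and GALNT17, and lower were ST6GALNAC6, B4GALT2, ST3GAL6 and ALG9. ST3GAL2 (0.97), ST6GAL1 (0.96) and GALNT11 (0.93) lay just under the threshold.

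**Figure D1:**
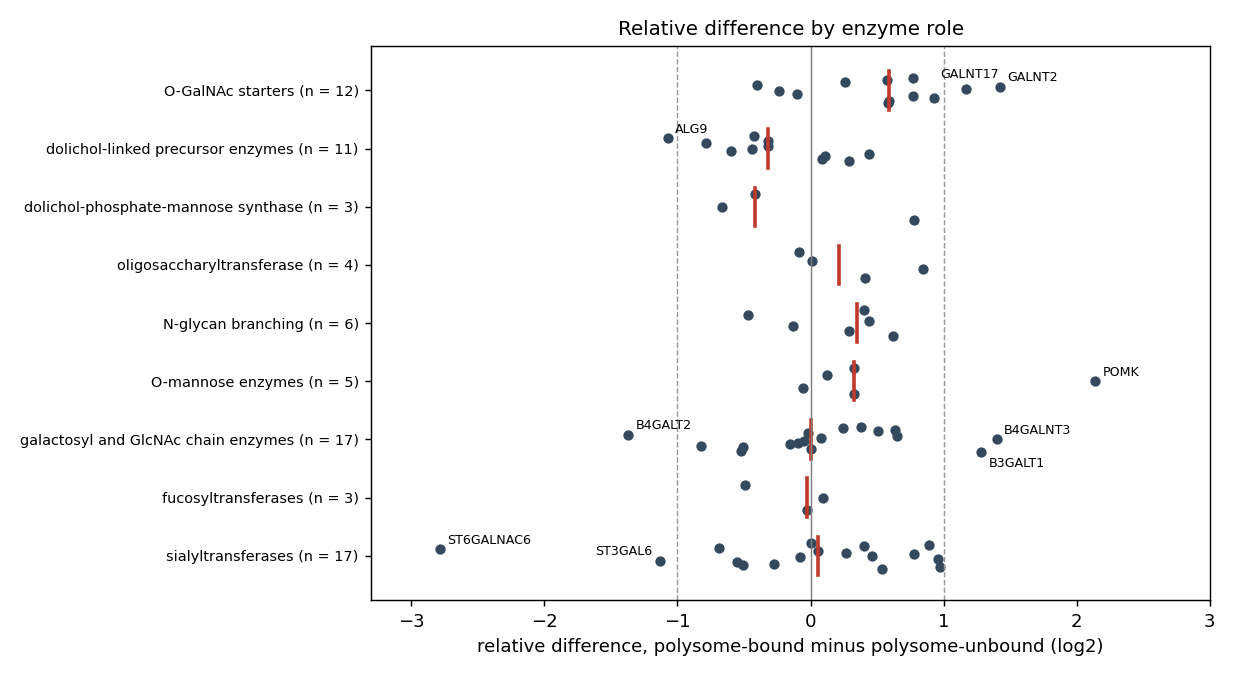
Relative difference, polysome-bound minus polysome-unbound RNA (log2, x axis), for the 78 members past the level filter, 1 point per gene, with a red bar at the median of each enzyme role and dashed lines at 2-fold. GALNT genes have a median of 0.59 and the dolichol-linked precursor enzymes one of -0.32, which is 0.88 as deposited, and POMK (2.14) and ST6GALNAC6 (-2.79) mark the ends.

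The GALNT family starts O-GalNAc chains, and its members overlap in the sites they use. GALNT2, a broadly expressed member that acts on many secreted proteins, had a value of 8.97 in bound, 6.35 in unbound and 8.59 in total RNA. Its relative bound minus unbound difference was 1.43, at percentile 98.0 of all genes past the filter. GALNT17, first named for the Williams-Beuren syndrome chromosome region, had 7.87 in bound, 5.51 in unbound and 7.59 in total RNA, with a relative difference of 1.17. For both genes the unbound array was the lowest of the 3. The relative bound minus total difference was -0.51 for GALNT2 and -0.61 for GALNT17, although bound RNA was slightly higher as deposited. A further probe set of GALNT17 gave 4.35, at background, in bound RNA and 3.32, below background, in unbound RNA, a relative difference of -0.17, and with the mean of its probe sets the gene was at 0.50 and no longer 2-fold apart.

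GALNT11 had 9.28 in bound, 7.16 in unbound and 7.80 in total RNA (relative bound minus unbound difference 0.93). GALNT7, an enzyme that prefers peptides already carrying N-acetylgalactosamine, had 8.49 in bound, 6.52 in unbound and 8.11 in total RNA (0.77). GALNT10, another such follow-up enzyme, had 7.53 in bound, 5.74 in unbound and 6.23 in total RNA (0.59). Bound RNA was highest in each of these 3 genes as deposited, and after centring GALNT7 was lower in bound than in total RNA (-0.51).

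GALNT12 had 7.64 in bound, 5.68 in unbound and 6.12 in total RNA (0.77). GALNT1, the other broadly expressed starter, had 9.14 in bound, 7.36 in unbound and 8.47 in total RNA (0.58). GALNT13, known from neural tissue, had 6.28 in bound, 5.19 in unbound and 5.49 in total RNA (-0.10). GALNT13 was thus at the middle of all genes, and it was higher in bound RNA as deposited.

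The remaining GALNT genes were close to background. GALNT6 had 4.82 on the bound array and 3.79 in total RNA and was at background on the unbound array (3.05), which makes bound RNA at least 2.38-fold higher than unbound RNA as deposited. This lower limit includes the offset of 1.195 (log2) between the 2 arrays, so little of it remains after centring. GALNT5 had 5.11 in bound, 3.66 in unbound and 3.65 in total RNA (0.26), the last of these at background. GALNT16 had 4.81 in bound, 3.85 in unbound and 4.49 in total RNA (-0.24), and GALNT3, which glycosylates the phosphate hormone FGF23, had 4.56, 3.77 and 3.75 in the same order (-0.40), the last at background. The background genes themselves had a median relative difference of -0.48, and the part of dimness in the values of these GALNT genes was not tested. Across the 12 GALNT genes past the filter, the relative difference went with the mean level (Pearson r 0.73, Spearman rho 0.72, n = 12 genes that share the same 3 arrays). Over the 78 members past the filter the same 2 values were 0.14 and 0.20. Over 12050 genes past the filter with a known genomic span they were 0.010 and 0.098.

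ALG enzymes act in a fixed order on dolichol. DPAGT1, which places the first sugar, had a value of 7.45 in bound, 6.67 in unbound and 7.04 in total RNA, a relative bound minus unbound difference of -0.42. ALG13 and ALG14 form the enzyme that adds the next one. ALG14, the membrane anchor, had 6.42 in bound, 4.79 in unbound and 5.35 in total RNA (0.44), and ALG13, the catalytic subunit, had 7.23 in bound, 5.93 in unbound and 6.45 in total RNA (0.11). A further ALG13 probe set gave a relative difference of -0.18.

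The cytosolic mannose steps follow. ALG1, which adds the first mannose, had 7.19 in bound, 5.71 in unbound and 6.43 in total RNA (0.29). ALG2, which adds the mannoses after it, had 7.93 in bound, 7.33 in unbound and 6.56 in total RNA (-0.59). ALG2 differed from ALG1 in that its unbound value was above its total RNA value.

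Among the enzymes that act on the luminal side, ALG9 had the lowest relative difference. ALG3, which adds the first luminal mannose, had 8.53 in bound, 7.78 in unbound and 8.04 in total RNA (-0.44). ALG9, which adds later mannoses, had 8.76 in bound, 8.63 in unbound and 8.15 in total RNA (-1.07), at percentile 7.57 of all genes past the filter, and -0.81 when the offset was taken with no filter. ALG12, which acts between the steps of ALG9, had 6.82 in bound, 5.54 in unbound and 5.99 in total RNA (0.09). The enzymes next to each other in this branch therefore did not share a position, and ALG9 was nearly level between bound and unbound RNA as deposited (0.12).

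The glucose steps complete the precursor. ALG5, which makes the glucose donor, had 5.28 in bound, 4.41 in unbound and 4.62 in total RNA (-0.32). ALG6, which adds the first glucose, had 8.28 in bound, 7.87 in unbound and 7.83 in total RNA (-0.79), and ALG8, which adds the next, had 8.29 in bound, 7.41 in unbound and 8.33 in total RNA (-0.32). All 3 were on the unbound side of 0 after centring and higher in bound RNA as deposited.

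**Figure D2:**
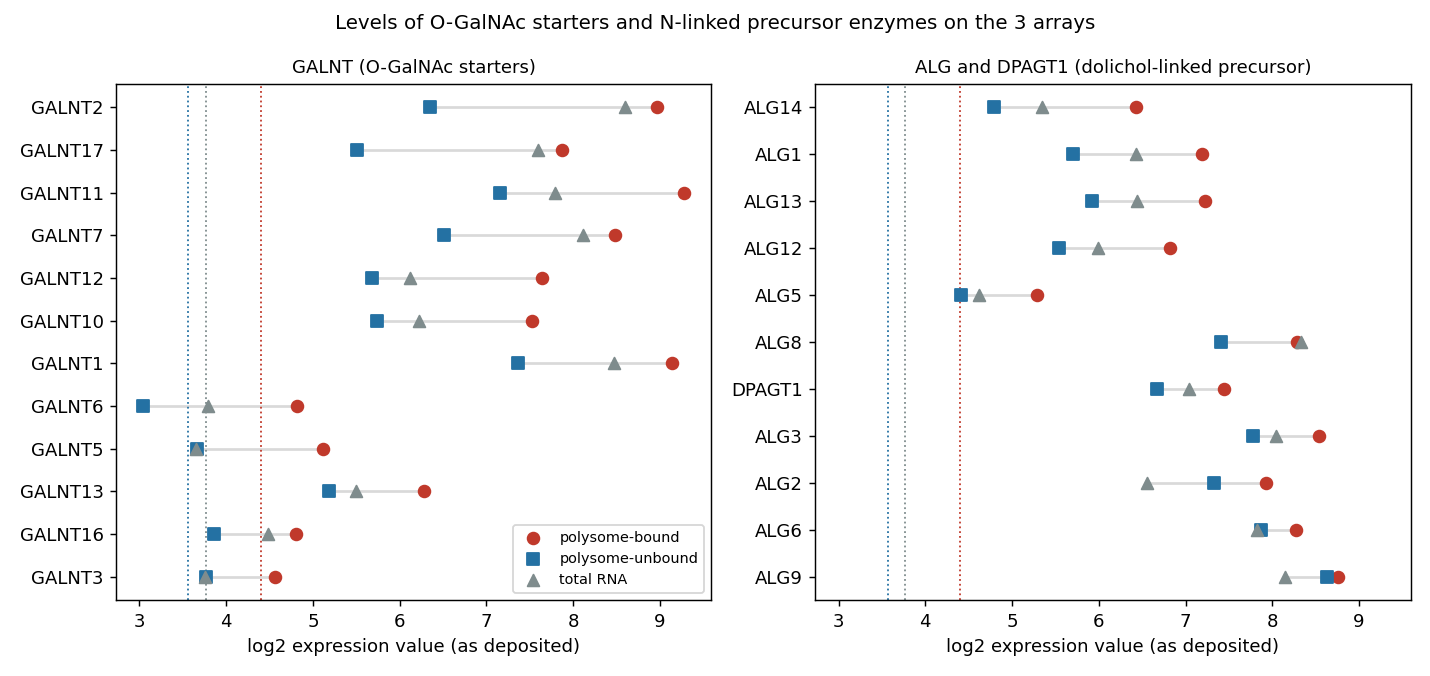
Log2 expression values as deposited (x axis) of the 12 GALNT genes and of the 11 ALG and DPAGT1 genes past the level filter on the bound (circles), unbound (squares) and total RNA (triangles) arrays, ordered by relative bound minus unbound difference. Dotted lines mark background on each array. GALNT2 and GALNT17 show a wide gap between bound and unbound values, and ALG6 and ALG9 a narrow one.

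Set side by side, the 12 GALNT genes had a median relative bound minus unbound difference of 0.59 (range -0.40 to 1.43) and the 10 ALG genes one of -0.32 (range -1.07 to 0.44). As deposited the medians were 1.78 and 0.88, both toward bound RNA. The gap between the families was 0.91, and it is the same on either scale because the offset cancels. The ranges overlapped. Of the 11 GALNT genes above background on both arrays, which leaves out GALNT6, 7 lay above the highest ALG gene, and 4 of 10 ALG genes lay below the lowest GALNT gene. With all 17 GALNT genes and no level filter the gap was 0.58, and with the 8 GALNT and 9 ALG genes past a stricter filter (the 99th percentile of background) it was 1.09. The families also differed in genomic span. The median span was 129 kb for the 12 GALNT genes (40.4 to 1388 kb) and 54.4 kb for the ALG genes (5.52 to 104 kb). Span (log10) and relative difference were correlated over the 78 members (Pearson r 0.31, Spearman rho 0.34) and over 12050 genes with a known span (0.32 and 0.25), all on the same arrays. Within the 12 GALNT genes the same 2 values were 0.11 and 0.31. The part of span in the gap was not tested.

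Dolichol-phosphate-mannose synthase supplies the luminal mannose steps. DPM1, its catalytic subunit, had 9.87 in bound, 7.90 in unbound and 9.13 in total RNA (relative bound minus unbound difference 0.78). DPM3, a small membrane subunit, had 7.60 in bound, 6.83 in unbound and 7.15 in total RNA (-0.42), and DPM2, the other one, had 4.77, 4.23 and 3.87 in the same order (-0.66). The catalytic subunit was thus on the bound side and both small subunits on the unbound side after centring, and all 3 were higher in bound RNA as deposited. DPM2 was close to background in bound (4.40) and total RNA (3.76). Background genes had a median relative bound minus unbound difference of -0.48, and the part of dimness in the value of DPM2 was not tested.

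Oligosaccharyltransferase genes were near or above the middle of all genes. RPN2 (ribophorin II) had 10.02 in bound, 7.98 in unbound and 9.86 in total RNA (0.85), and RPN1 (ribophorin I) had 10.51 in bound, 8.90 in unbound and 10.25 in total RNA (0.41). STT3A, the catalytic subunit that acts during translocation, had 9.88 in bound, 8.67 in unbound and 10.14 in total RNA (0.01). STT3B, the catalytic subunit that can also act afterwards, had 11.20 in bound, 10.09 in unbound and 10.45 in total RNA (-0.09). The position of STT3B depended on the scaling: it had 0.53 with the lowess trend removed and 0.76 after quantile normalization, where STT3A had 0.08 and 0.15.

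MGAT enzymes add the branches of complex N-glycans, and 6 of the 10 passed the filter, with a median relative bound minus unbound difference of 0.35 and none 2-fold apart. MGAT1, which opens the way to complex chains, had 7.52 in bound, 5.71 in unbound and 5.71 in total RNA (0.62). MGAT4A had 5.24 in bound, 3.61 in unbound and 3.95 in total RNA (0.44), and MGAT5, whose branch carries polylactosamine, had 8.95, 7.35 and 8.20 in the same order (0.40). MGAT2 had 6.56 in bound, 5.08 in unbound and 5.85 in total RNA (0.29). MGAT3, which adds the bisecting residue, had 6.31 in bound, 5.24 in unbound and 5.19 in total RNA (-0.13), and MGAT4B was lowest with 7.55 in bound, 6.82 in unbound and 6.53 in total RNA (-0.47). The related enzymes MGAT4A and MGAT4B thus lay on opposite sides of 0 after centring, and both were higher in bound RNA as deposited. The unbound value of MGAT4A was close to the background of 3.57, so its position is uncertain.

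POMK was the member furthest to the bound side. This kinase phosphorylates the O-linked mannose of alpha-dystroglycan, and its mRNA had a value of 9.43 in bound, 6.10 in unbound and 8.06 in total RNA. The relative bound minus unbound difference was 2.14, at percentile 99.9 of all genes past the filter, and it lay between 2.003 and 2.40 under every scaling, filter and probe set rule tried except the values as deposited (3.33). The other O-mannose enzymes were not apart. POMT1 had 7.95 in bound, 6.63 in unbound and 6.52 in total RNA (0.13), and its partner POMT2, with which it attaches the mannose, had 7.50, 5.98 and 6.41 in the same order (0.33). POMGNT1 had 8.79 in bound, 7.27 in unbound and 7.38 in total RNA (0.33), and POMGNT2, which acts before POMK on the same chain, had 5.21, 4.06 and 4.83 (-0.05).

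The galactosyl, N-acetylglucosaminyl and N-acetylgalactosaminyl chain genes were centred at 0 and ran from -1.37 to 1.40. Their median relative bound minus unbound difference was 0.0037 (17 of 25 past the filter). This role counts the antisense RNA B3GALT5-AS1, whose own value is that median. B4GALNT3 had 6.34 in bound, 3.74 in unbound and 4.95 in total RNA (1.40), and its unbound value was close to the background of 3.57. B3GALT1 had 7.43 in bound, 4.95 in unbound and 7.20 in total RNA (1.28). B4GALT1, the main galactosyltransferase of N-glycans, had 8.76 in bound, 6.91 in unbound and 7.24 in total RNA (0.65). As deposited the bound and total RNA values of B3GALT1 were close, and its relative bound minus total difference was -0.65.

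At the other end, B4GALT2 had 7.92 in bound, 8.10 in unbound and 7.73 in total RNA (-1.37). B3GNT2, which builds polylactosamine, had 8.74 in bound, 8.36 in unbound and 7.96 in total RNA (-0.82). B3GALT5, which makes a globo-series antigen of pluripotent cells, had 4.10 in total RNA and was at background on the bound (4.19) and unbound (3.51) arrays, so no difference between them is given. Among the 7 B4GALT genes, which add galactose in the same linkage, the relative differences ran from -1.37 for B4GALT2 to 0.65 for B4GALT1, and 5 of the 7 were above 0. The antisense RNA B3GALT5-AS1 had 4.92 in bound, 3.72 in unbound and 5.04 in total RNA, and whether the array tells it from B3GALT5 was not examined.

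Fucosyltransferases past the filter were not apart. FUT8, which adds the core fucose of N-glycans, had 8.93 in bound, 7.64 in unbound and 8.13 in total RNA (0.10). FUT4 had 4.89 in bound, 3.72 in unbound and 4.16 in total RNA (-0.03), and FUT9 had 4.38, at background, in bound, 3.68 in unbound and 4.11 in total RNA (-0.49). Both FUT4 and FUT9, which can make Lewis x structures, lay near background on the arrays.

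Sialyltransferases cap chains, and they spanned the widest range of any role (median relative bound minus unbound difference 0.053, range -2.79 to 0.97, 17 of 20 past the filter). ST6GALNAC6, which sialylates glycolipids, had 5.97 in bound, 7.56 in unbound and 5.50 in total RNA. Its relative difference was -2.79, at percentile 0.77 of all genes past the filter, and its other probe set gave -2.73. The values of that set were nearly the same on each array (5.97, 7.50 and 5.49). Whether the sets share probes was not examined, so it is not counted as a separate measurement. This gene was lower in bound than in unbound RNA as deposited as well (-1.59). ST6GALNAC4, the gene next to it on chromosome 9, had 6.23 in bound, 4.76 in unbound and 5.58 in total RNA (0.27).

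ST3GAL6 had 6.59 in bound, 6.53 in unbound and 6.07 in total RNA (-1.13, and -0.87 when the offset was taken with no filter). ST8SIA1, which makes the ganglioside GD3, had 4.14 on the bound array, which was at background, 3.64 on the unbound array and 3.93 in total RNA (-0.69). Its other probe set was below background on both arrays (4.27 in bound and 2.84 in unbound RNA), so no direction is given for ST8SIA1. On the bound side, ST3GAL2, which makes a sialylated globo-series antigen of pluripotent cells, had 7.79 in bound, 5.62 in unbound and 6.73 in total RNA (0.97). ST6GAL1, which sialylates N-glycans, had 8.97 in bound, 6.81 in unbound and 8.12 in total RNA (0.96), and the polysialyltransferase ST8SIA4 had 5.996 in bound, 3.91 in unbound and 4.24 in total RNA (0.89). The rest of this role lay between -0.55 (ST3GAL5) and 0.78 (ST6GALNAC3).

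The first bases of these mRNAs are shown because of a known sequence at the very 5′ end. That sequence, a run of pyrimidines called the terminal oligopyrimidine tract, can under some conditions keep mRNAs such as those of ribosomal proteins off polysomes. Whether those conditions held in these H9 cells was not tested. The start sites are RefSeq's (GRCh38.p14), 20 bases before and 25 from the start, read 5′ to 3′ on the gene's strand, with the pyrimidine run in capitals where a C at the start opens a run of at least 5 pyrimidines. The first 4 are GALNT2, as a starter toward bound RNA, and 3 of the 4 members 2-fold or more toward unbound RNA, with ST3GAL6 and POMK not shown, and the next 4 are the members that hold such a run.
GALNT2 (chr1:230067218-230067262, plus strand): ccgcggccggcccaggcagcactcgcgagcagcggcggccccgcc
B4GALT2 (chr1:43979917-43979961, plus strand): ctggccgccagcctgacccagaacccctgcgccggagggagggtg
ALG9 (chr11:111871277-111871321, minus strand): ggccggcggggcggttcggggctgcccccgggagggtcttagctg
ST6GALNAC6 (chr9:127905300-127905344, minus strand): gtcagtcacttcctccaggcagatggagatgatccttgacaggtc
GALNT16 (chr14:69260138-69260182, plus strand): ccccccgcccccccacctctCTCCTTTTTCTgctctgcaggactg
ST3GAL4 (chr11:126403396-126403440, plus strand): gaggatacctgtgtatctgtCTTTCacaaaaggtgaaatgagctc
ST6GALNAC4 (chr9:127917017-127917061, minus strand): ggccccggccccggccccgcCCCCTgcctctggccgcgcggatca
ST8SIA3 (chr18:57352537-57352581, plus strand): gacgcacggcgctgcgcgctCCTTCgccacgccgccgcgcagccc
Of the 79 members with a start in the table, 4 held such a run at any annotated start (5.06%), against 5.14% of 27305 genes and 68.3% of 63 RPL and RPS genes. The relative bound minus unbound differences of the 4 were -0.24 for GALNT16, -0.28 for ST3GAL4, 0.27 for ST6GALNAC4 and -0.31 for ST8SIA3, which is under the level filter. The 4 members 2-fold or more toward unbound RNA, ST6GALNAC6, B4GALT2, ST3GAL6 and ALG9, held no such run at any of their annotated starts. A run is a description of the annotated start, which may not be the start used in H9 cells.

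Bound and unbound RNA were each set against total RNA, with which they share 1 array, so their differences are given side by side and not compared. Total RNA was purified with another kit than both polysome pools, so the effects of kit and of source cannot be told apart. In bound RNA 1 of the 78 members was at least 2-fold higher after centring (3.92% of all genes were) and 1 was lower (4.56% of all genes). ST6GALNAC2, which sialylates O-GalNAc chains, was higher by 1.26 (6.35 in bound and 4.21 in total RNA), and STT3A was lower with a relative difference of -1.15 (9.88 in bound and 10.14 in total RNA). As deposited, 30 members were 2-fold or more higher in bound than in total RNA (40.1% of all genes were) and 0 were lower (0.572% of all genes). With no filter, 4 of the 104 members were higher (4.62% of all genes) and 0 were lower (1.92% of all genes) after centring. In unbound RNA 3 members were at least 2-fold higher than in total RNA (3.85%, against 9.16% of all genes) and 10 were lower (12.8%, against 8.62% of all genes). As deposited 1 was higher (5.42% of all genes) and 14 were lower (16% of all genes), and with no filter 3 of 104 were higher (6.05% of all genes) and 10 were lower (5.67% of all genes) after centring. At a 1.5-fold threshold, 18 members lay toward bound against unbound RNA (20.1% of all genes) and 9 away from it (19.2% of all genes). At the same threshold, 9 were higher in bound than in total RNA (12.5% of all genes) and 11 were lower (13% of all genes), and 11 were higher in unbound than in total RNA (19.8% of all genes) and 16 were lower (19.9% of all genes).

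**Figure D3:**
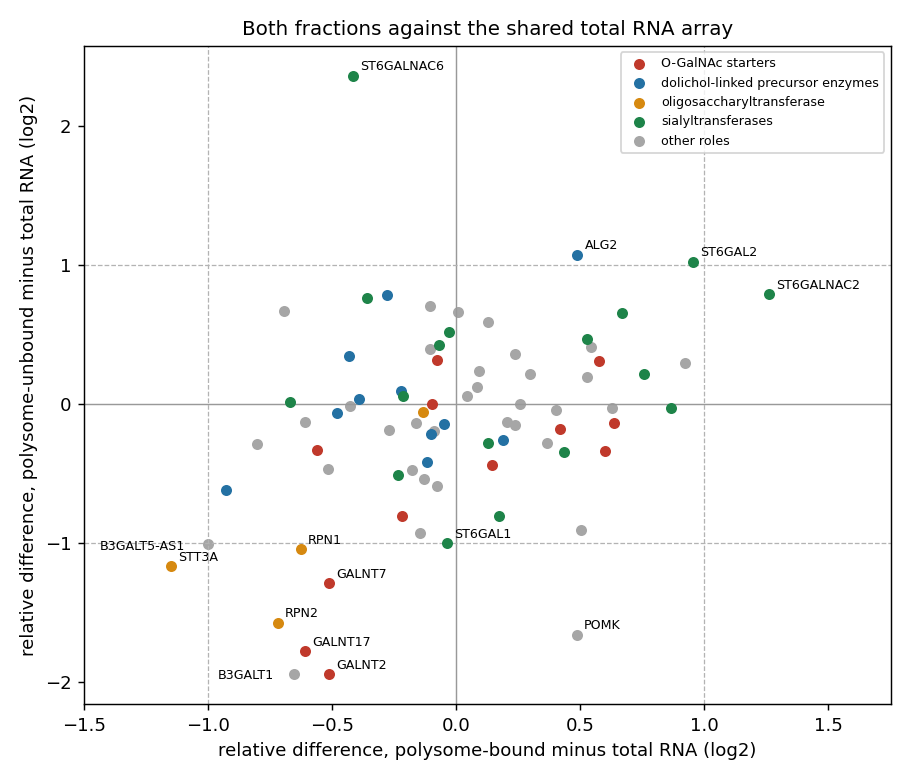
Relative difference of bound RNA (x axis) and of unbound RNA (y axis) against the same total RNA array (log2) for the 78 members past the level filter, with dashed lines at 2-fold and names for genes 2-fold apart in either comparison. GALNT2, GALNT17, B3GALT1, POMK and 3 of the 4 oligosaccharyltransferase genes lie at the bottom, and ST6GALNAC6 lies alone at the top.

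The 10 members lower in unbound than in total RNA, on the relative scale, were 9 enzyme genes and 1 antisense RNA, namely GALNT2 (-1.95), B3GALT1 (-1.94), GALNT17 (-1.78), POMK (-1.66), RPN2 (-1.57), GALNT7 (-1.29), STT3A (-1.17), RPN1 (-1.05), B3GALT5-AS1 (-1.01) and ST6GAL1 (-1.005). Their bound minus total differences ran from -1.15 (STT3A) to 0.49 (POMK). Oligosaccharyltransferase accounted for 3 of them, and STT3B, the remaining gene of the 4, had -0.05. In bound against total RNA the catalytic subunit STT3A had -1.15 and STT3B had -0.14. The 3 GALNT genes among the 10 had bound minus total differences of -0.51 (GALNT2), -0.61 (GALNT17) and -0.51 (GALNT7).

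Higher in unbound than in total RNA were ST6GALNAC6 (2.36), ALG2 (1.08) and ST6GAL2 (1.02). For ST6GALNAC6 the bound minus total difference was -0.42, for ALG2 it was 0.49 and for ST6GAL2 0.95. In the families as a whole, the 12 GALNT genes had a median unbound minus total difference of -0.33 and the 10 ALG genes one of -0.054, and bound minus total medians were -0.088 and -0.17. As deposited these unbound minus total medians were -0.63 and -0.36, and the bound minus total ones 0.80 and 0.72.

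Marker lists of other cell types differed between the arrays too. Of 7 measured yolk sac and liver endoderm markers (TTR, APOA2, APOA1, AFP, SOX17, FOXA2 and APOB), 7 were above background in bound, 6 in unbound and 5 in total RNA, and their summed level was 9.90 in bound, 7.58 in unbound and 6.65 in total RNA (log2 of the sum). AFP and APOB were at background in total RNA. Among 7 markers of trophoblast and amnion, 6 exceeded background in bound, 6 in unbound and 5 in total RNA, with summed levels of 10.05, 9.10 and 7.84 in that order, and CGA was at background on all arrays. Of 4 measured neural markers (PAX6, SOX1, LHX2 and NEUROG2), 2 were above background on each array. SOX1 and NEUROG2 were at or below background in bound and unbound RNA, and LHX2 and NEUROG2 in total RNA. Their summed levels were 8.33 in bound, 7.73 in unbound and 6.27 in total RNA, and came mostly from PAX6 (8.02, 7.48 and 5.27). Fibroblast markers had summed levels of 11.24, 9.14 and 11.28, and pluripotency markers 12.76, 11.75 and 12.59. Relative to the array offsets, the summed bound minus unbound difference was 1.13 for endoderm, 0.91 for fibroblast, -0.18 for pluripotency, -0.25 for trophoblast and amnion and -0.59 for neural markers. The relative bound minus total difference was 2.37 for endoderm, 1.33 for trophoblast and amnion, 1.18 for neural, -0.72 for pluripotency and -0.92 for fibroblast markers. A summed level mostly follows the brightest genes, and some lists had members going both ways in this comparison. SOX17 (-0.20) and FOXA2 (-0.39) were negative and the other endoderm markers positive, up to 3.37 for TTR. Of the fibroblast markers COL1A1 (-1.45), THY1 (-1.22) and COL1A2 (-0.68) were negative, and LUM (1.67), DCN (0.21) and COL3A1 (0.16) positive. For the neural markers the values were 1.86 (PAX6), 0.22 (LHX2), -0.39 (NEUROG2) and -0.45 (SOX1). The relative unbound minus total difference was 1.77 for neural, 1.57 for trophoblast and amnion, 1.23 for endoderm, -0.54 for pluripotency and -1.84 for fibroblast markers. In such bulk RNA, fewer cells of a type, less RNA per cell and a different share of the mRNA on polysomes cannot be told apart. The part of these shifts in the values of the glycosylation enzymes was not tested.

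Further sugar-pathway genes were described from 9 lists, most of them of genes that supply, trim or extend the same glycans. The O-fucose, O-glucose and O-GlcNAc list concerns other sugar chains. N-glycan trimming and folding enzymes (14 measured, all past the filter) had a median relative bound minus unbound difference of 0.63, with 5 lying 2-fold or more toward bound RNA (35.7%, against 7.65% of all genes past the filter) and 2 toward unbound RNA (14.3%, against 8.68%). MAN2A2, a Golgi mannosidase, had 7.27 in bound, 4.43 in unbound and 5.22 in total RNA (1.64), and PRKCSH, the regulatory subunit of glucosidase II, had 9.18 in bound, 9.76 in unbound and 9.56 in total RNA (-1.78). The 4 others higher were UGGT1, which marks misfolded glycoproteins (1.42), EDEM2 (1.19), EDEM1 (1.14) and MAN1A1 (1.05), and MOGS, which removes the first glucose, was lower (-1.05). The O-fucose, O-glucose and O-GlcNAc genes (11 of 12 past the filter) had the highest median of the 9 lists, 0.78. The O-glucosyltransferase genes POGLUT2 (1.34), POGLUT3 (1.16) and POGLUT1 (1.01) were at least 2-fold higher (27.3%, against 7.65% of all genes) and 0 were lower (8.68% of all genes). RFNG was the lowest of this list at -0.68.

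The other lists lay closer to the middle. Further oligosaccharyltransferase subunits (7 past the filter) had a median of -0.41, from TMEM258 (-1.30; 9.37 in bound, 9.47 in unbound and 8.91 in total RNA) to MAGT1 (1.09; 9.36 in bound, 7.07 in unbound and 8.97 in total RNA). Dolichol supply (5 past the filter) had a median of 0.25, from DHDDS (-0.13) to MPDU1, which is needed to use dolichol-linked sugars (1.17). Nucleotide sugar transporters (9 past the filter) had a median of 0.35, from SLC35D2 (-1.49) to SLC35B4 (1.36). None of the 17 genes of nucleotide sugar synthesis was 2-fold apart (median -0.0016, from GALT at -0.82 to CMAS at 0.95). The same held for core O-glycan extension (4 genes, from GCNT4 at -0.29 to C1GALT1 at 0.41), the 4 measured alpha-dystroglycan genes (RXYLT1 at -0.34 to B4GAT1 at 0.76) and 7 COG subunits (COG2 at -0.41 to COG6 at 0.50). The medians of all 9 lists were positive as deposited.

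**Figure D4:**
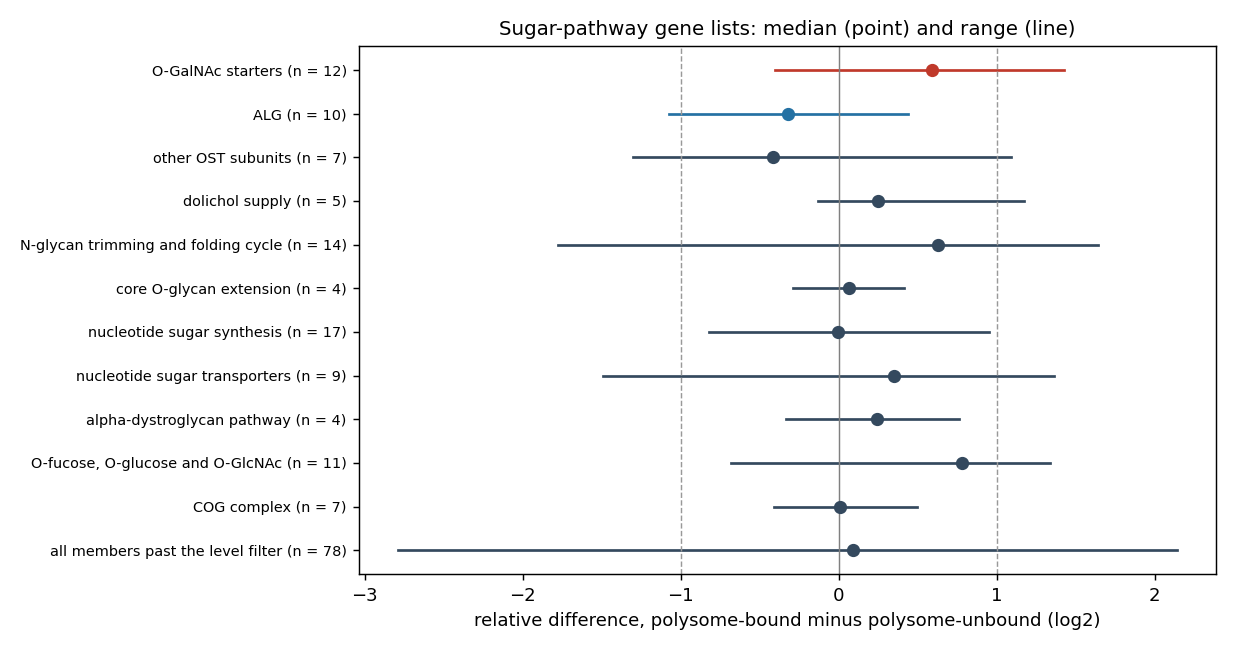
Median (point) and range (line) of the relative difference, polysome-bound minus polysome-unbound RNA (log2, x axis), for GALNT, ALG, the 9 further pathway lists and all members, counting genes past the level filter. GALNT (0.59), N-glycan trimming (0.63) and O-fucose, O-glucose and O-GlcNAc genes (0.78) have the highest medians, and every median shown is positive as deposited.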

How the data were processed

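One array was made per source in H9 cells, and each sample's group was read from its label. Values are log2 per probe set as deposited; Partek 6.5 and RMA are named in the submitters' processing notes; the genome build and annotation are not given in the sources used here. All 33297 bound values end in the same 2 decimals and have 7 decimals, against 5 at most in the other columns, so the scaling between arrays is unknown; centring removes any constant added. Genes were named from GEO's platform annotation (19460 probe sets with 1 symbol, 1754 with several, 12083 unlisted), and all 104 members matched RefSeq by gene ID. For genes with several probe sets (10 members) the set with the highest mean was kept. A gene counted as apart at a log2 difference of 1, with no test.

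Every member past the filter was placed in its role, and each role's 3 highest and 3 lowest, all GALNT and all ALG genes were named with values, and pathway lists by their highest and lowest gene. Further members, and the other pathway genes 2-fold apart, were named after their values were seen. Members and lists were chosen with earlier results of these data known. The scripts were tested on simulated data. Having 1 array per source limits precision, as does closeness to background. Software was matplotlib 3.10.9, statsmodels 0.14.6, pandas 2.3.3 and numpy 2.4.6 under Python 3.11.15.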

Additional observations from a re-analysis of the deposited data

How the results depend on the processing

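The alternatives were the values as deposited, quantile normalization, removal of a lowess trend (span 0.3), no level filter or the 99th percentile of background, the mean of all probe sets or genes with 1 probe set, a 1.5-fold threshold and the mean in place of the median. Centring on the difference of array medians and protein-coding members only were added after the data were seen. The cause of the changes below was not tested. As deposited, members 2-fold higher and lower were 55 and 1 for bound against unbound RNA (61.4% and 1.56% of all genes). They were 30 and 0 for bound against total RNA (40.1% and 0.572% of all genes), and 1 was higher in unbound than in total RNA (5.42%). The median bound minus unbound difference as deposited was 1.29, against 1.195 for all genes. With no filter the counts were 14 and 2 for bound against unbound RNA (9.74% and 3.82% of all genes). For bound against total RNA they were 4 and 0 (4.62% and 1.92% of all genes). At 1.5-fold the counts were 18 and 9 for bound against unbound RNA (20.1% and 19.2% of all genes past the filter). They were 9 and 11 for bound against total RNA (12.5% and 13%) and 11 and 16 for unbound against total RNA (19.8% and 19.9%). Genes of 1 probe set gave 0 higher members in bound against total RNA. The only member called there, ST6GALNAC2, has 2 probe sets and was left out by that rule. With the offset from array medians 3 members were lower in bound than in total RNA. The shares of all genes under these settings are not given. The relative median of 0.093 became 0.15 by quantile normalization, 0.14 by lowess, 0.18 with no filter, 0.17 with the stricter filter, 0.089 with the mean of probe sets, 0.082 with 1 probe set, 0.026 with the array medians, 0.097 for protein-coding members and 0.11 as a mean. The GALNT minus ALG gap of 0.91 was 0.89 by quantile normalization, 0.92 by lowess, 0.58 with no filter and 1.09 with the stricter filter. It was 0.90 with the mean of probe sets, 0.90 with 1 probe set, 0.79 as a mean and 0.91 with DPAGT1 added. As deposited, with the array medians and with protein-coding members only it stayed at 0.91. Those outcomes were fixed in advance, because a constant offset cancels and all GALNT and ALG members are protein coding. With the stricter background line, 56 of 104 members were above background in total RNA, against 76. ALG9 (-0.81) and ST3GAL6 (-0.87) were no longer 2-fold apart with no filter, and GALNT17 (0.50) was not with the mean of its probe sets. No paired analysis was possible because each group has 1 array.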
